A study of Rattus norvegicus with 39 samples.

Results

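The 6 genes described here, Ccn1, Ccn2, Tgfb1, Tgfb2, Skil and Smad7, are output and feedback genes of the YAP and TGF-beta pathways, followed in rat bile duct and hepatocytes after 1-naphthylisothiocyanate (ANIT), a toxicant that injures the bile duct epithelium. They were taken as every probe set whose platform annotation gives 1 of these symbols alone, which returned all 6 genes and 9 probe sets of the 15866 tested. Ccn2, Ccn1, Tgfb1 and Skil had 1 probe set each, Tgfb2 had 2 and Smad7 had 3. Sprague Dawley rats aged 8 weeks received a single dose of 50 mg/kg ANIT in corn oil or 10 ml/kg corn oil alone, and bile duct epithelium or hepatocytes were cut from the liver by laser capture microdissection. The 8 groups were ANIT bile duct at 2 h, vehicle bile duct at 2 h, ANIT bile duct at 6 h, vehicle bile duct at 6 h, and the same 4 for hepatocytes. Each group had 5 arrays, 1 per rat, except vehicle bile duct at 6 h, which had 4. The captured RNA was amplified, labelled with biotin and hybridised to 1-colour Affymetrix arrays. Whether a bile duct and a hepatocyte capture came from the same rat is not stated in the labels. How precise each value is depends on these few arrays per group.

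The Hippo kinases phosphorylate the co-activators YAP and TAZ and hold them in the cytoplasm; released, they enter the nucleus and act on genes through TEAD transcription factors. Ccn2 (connective tissue growth factor) and Ccn1 (Cyr61) encode secreted matricellular proteins and are the most used readouts of YAP and TEAD, and Ccn2 is also a TGF-beta target. TGF-beta ligands are secreted in a latent form and, once freed, signal through receptor kinases and SMAD proteins. Skil (SnoN) is a SMAD co-repressor and Smad7 an inhibitory SMAD, and TGF-beta induces both as feedback. In liver, YAP is known to be active in bile duct cells, and both pathways are known for their part in the ductular and fibrotic response to injury.

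In bile duct, Ccn2 was the member with the clearest ANIT response. It was 3.78-fold higher in ANIT than in vehicle captures at 2 h and 8.96-fold higher at 6 h. Ccn1 and 1 of the 2 Tgfb2 probe sets, 1387172_a_at, passed the same test at 6 h only, at 2.32-fold and 2.36-fold. With Ccn2 these were 3 of 9 member probe sets at 6 h, where 6.51% of all passed. The Ccn1 and Tgfb2 calls were lost in 8 and 7 of the 9 fits that left out 1 array. Tgfb2 1387172_a_at in the ANIT captures at 6 h differed by only 0.20 on the log2 scale from the 2 h vehicle captures, which did not pass the test. In hepatocytes no member passed the test at either time, where 0.0% of all probe sets passed at each time, so this is not particular to the members.

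The upstream sequence of both CCN genes is shown because TEAD factors are known in human cells to act close to the start of these genes. In RefSeq build GRCr8 all 6 are protein-coding genes, Ccn2 at chr1:22621498-22624614, Ccn1 at chr2:237222730-237225689, Tgfb2 at chr13:100691540-100793227, Tgfb1 at chr1:90324312-90340627, Skil at chr2:114175534-114203663 and Smad7 at chr18:71263508-71291849. The 250 bases before the transcription start are from the same build, on the gene's strand (both genes lie on the minus strand), with the TEAD core motif in capitals (GGAATG on the gene's strand; its reverse complement is CATTCC). The Ccn2 stretch is chr1:22624615-22624864 and the Ccn1 stretch is chr2:237225690-237225939.
Ccn2: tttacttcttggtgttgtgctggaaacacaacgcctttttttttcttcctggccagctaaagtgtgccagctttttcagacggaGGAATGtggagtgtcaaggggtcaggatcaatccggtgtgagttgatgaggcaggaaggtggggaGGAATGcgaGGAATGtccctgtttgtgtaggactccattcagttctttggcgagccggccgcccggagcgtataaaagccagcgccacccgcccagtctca
Ccn1: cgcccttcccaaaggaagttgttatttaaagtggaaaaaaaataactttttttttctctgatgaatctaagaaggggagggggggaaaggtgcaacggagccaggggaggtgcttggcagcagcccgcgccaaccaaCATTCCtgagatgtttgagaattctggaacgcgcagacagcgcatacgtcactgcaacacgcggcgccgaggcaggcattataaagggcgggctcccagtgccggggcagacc

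Ccn2 held 3 matches to the TEAD core, starting 166, 101 and 92 bases before the start, and Ccn1 held 1, on the other strand, 113 bases before it. Of 33469 rat promoters of this length, 12.1% held at least 1 match on either strand and 0.0807% (27 promoters) held 3 or more. The SMAD box CAGAC, searched on both strands, matched at 1 place in Ccn2 and at 2 places each in Ccn1 and Skil. Of all promoters, 42.9% held it at least 1 time and 11.5% held 2 or more. No member's window matched the AP-1 site TGACTCA (on the other strand TGAGTCA), found in 4.05% of promoters, or the serum response CArG box, found in 1.5%. Tgfb2, Tgfb1 and Smad7 matched none of the 4 motifs. The windows of Tgfb2 and Skil start at a transcript that begins inside the longest annotated form of the gene. No motif overlapped another, and a match is a match of letters only.

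**Figure D1:**
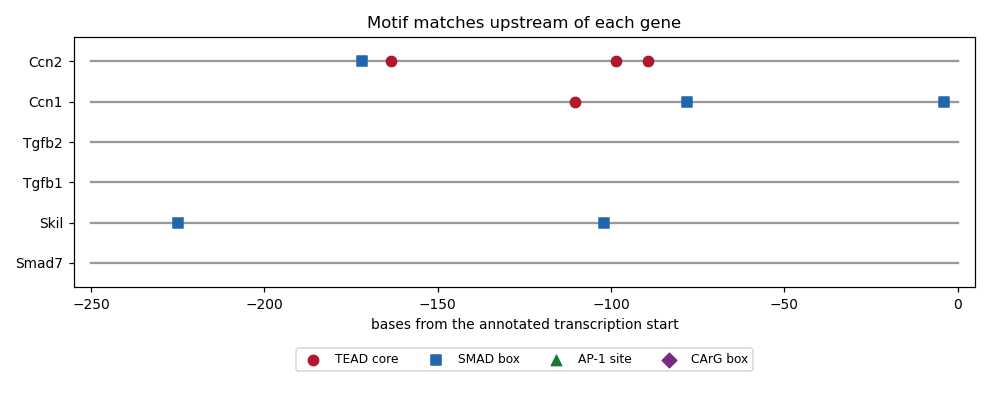
Matches to 4 motifs in the 250 bases upstream of each gene, on either strand. The horizontal axis is the distance in bases from the annotated start, and each symbol is the centre of 1 match. Ccn2 has 3 TEAD core matches, Ccn1 has 1 and the other genes have none.

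The values are log2 intensities after RMA, in which 1 unit is a doubling of signal. Probe sets differ in brightness for reasons of design, so levels are compared only within a probe set. The median of each array lay between 3.93 and 4.16. Ccn2 stood above its array's median on 32 of 39 arrays, Skil on 37, the brightest Smad7 probe set (1368896_at) on 33, Tgfb2 (1387172_a_at) on 19 and Ccn1 on 17. The second Tgfb2 probe set (1388011_a_at) did so on 1 array, Smad7 1368898_at on 10, and Tgfb1 and Smad7 1368897_at on 0. These dim probe sets can show little of a lower level.

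The defining markers separated the regions, and bile duct captures also held hepatocyte RNA. Krt19, a bile duct keratin, ranged between 10.57 and 11.69 in bile duct captures and between 2.63 and 4.12 in hepatocyte captures, while Slc10a1, the hepatocyte bile acid importer, ranged between 1.85 and 5.70 in bile duct and between 9.09 and 10.01 in hepatocytes. Apoa1, a hepatocyte apolipoprotein, reached 9.96 in bile duct captures (3.63 to 9.96), against 11.84 to 12.83 in hepatocytes. The mean of the 16 hepatocyte markers varied between 3.91 and 8.40 over bile duct captures, and was 7.49 and 8.40 in vehicle replicates 1 and 3 at 6 h. Bile duct captures held stroma too, with Col1a1 between 7.50 and 10.41 against 3.92 to 5.64 in hepatocytes. Hepatocyte captures held RNA of the Kupffer cell gene Clec4f, which ranged between 2.04 and 6.76 in bile duct and between 7.86 and 9.27 in hepatocytes. The other markers of that list were mixed. Of 9 measured in vehicle captures, 2 were lower and 1 higher in bile duct than in hepatocytes at 2 h. At 6 h, 4 were lower and 1 higher. Of all probe sets, 23.5% were lower and 28.7% higher at 2 h, and 24.4% and 29.3% at 6 h. Replicates correlated less in bile duct (0.834 to 0.973) than in hepatocytes (0.979 to 0.993). The SD of log2 values over all probe sets of an array was 1.95 to 2.06 in ANIT and 1.68 to 1.88 in vehicle bile duct at 6 h, and 1.76 to 2.11 in ANIT and 1.99 to 2.18 in vehicle bile duct at 2 h. It therefore moved with treatment at 6 h, and the 2 vehicle groups of bile duct also differed in it. Fewer cells of a type and less RNA per cell cannot be told apart in such captures.

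Each comparison was fitted with limma on its own arrays, with p-values adjusted by the Benjamini-Hochberg method over all 15866 probe sets and a threshold of 0.05. Differences are on the log2 scale with the standard error.

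At 2 h, Ccn2 was 8.37, 7.61, 8.88, 9.0 and 9.37 in ANIT bile duct, against 5.84, 7.19, 6.83, 6.05 and 7.72 in vehicle bile duct. All ANIT captures but 1 lay above every vehicle capture, so the groups overlapped by a single pair of values. The difference was 1.92 ± 0.39 (adjusted p = 0.0277, n = 5 and 5). Ccn2 was the 1 member probe set of 9 that passed, where 1.12% of all probe sets did.

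The 2 h call was narrow. It was lost when vehicle replicate 1 (adjusted p = 0.0703), 3 (0.0853) or 4 (0.0665), or ANIT replicate 3 (0.0611) or 4 (0.0852), was left out, while the Ccn2 difference stayed between 1.70 and 2.18. In a fit over all 4 bile duct groups the Ccn2 difference was the same 1.92 (adjusted p = 0.0636), and with the hepatocyte marker level of each array as a covariate it was also 1.92 (adjusted p = 0.0755). Beside it, the 16 measured hepatocyte markers had a median log2 difference of 1.27 at 2 h and none passed. An unadjusted p under 0.05 was found in limma for 9 of them, beside 2675 of all 15866 probe sets. Their array means lay between 4.89 and 7.02 in ANIT and between 4.29 and 6.39 in vehicle bile duct. Of 14 cholangiocyte markers 1, Onecut1, was lower at 2 h (median -0.31; 4 with an unadjusted p under 0.05). The part of these markers in the 2 h call was not tested beyond the covariate. In vehicle captures Ccn2 was lower in hepatocytes than in bile duct (below), and the bearing of this on the 2 h call was not tested. The authors' deposited table gives Ccn2 a 2.59-fold increase at 2 h with p = 5.66e-07 before adjustment.

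At 6 h, Ccn2 was 10.61, 10.56, 8.87, 10.18 and 9.56 in ANIT bile duct, against 8.60, 7.16, 5.19 and 6.22 in vehicle bile duct. The groups did not overlap, and the vehicle captures were the more scattered. The difference was 3.16 ± 0.56 (adjusted p = 0.00643, n = 5 and 4). It passed in each of the 9 fits that left out 1 array and in each of the 12 other alternatives, with a highest adjusted p of 0.0402 when array spread was a covariate. Its size was less settled, between 2.63 and 3.77 when 1 array was left out, the highest without vehicle replicate 1. Against the 2 h vehicle captures, ANIT bile duct at 6 h was higher in Ccn2 by 3.23 (adjusted p = 0.000327). The authors' deposited table gives Ccn2 a 4.40-fold increase at 6 h with p = 4e-05 before adjustment.

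The vehicle level of Ccn2 differed little between times in bile duct, at 6.79 ± 1.45 at 6 h and 6.73 ± 0.78 at 2 h (SD, n = 4 and 5), a difference of 0.07 with a 95% interval of -1.16 to 1.30. The ANIT effect on Ccn2 was larger at 6 h than at 2 h by 1.24 ± 0.72, which did not pass (adjusted p = 0.283, 95% interval -0.25 to 2.74). Over the 8 groups the mean of Ccn2 was highest in ANIT bile duct at 6 h (9.96), then ANIT bile duct at 2 h (8.65), vehicle bile duct at 6 h and at 2 h, and lastly the 4 hepatocyte groups (3.73 to 4.80). Neighbouring groups in this order overlapped in their values, except that no hepatocyte capture reached the lowest bile duct capture.

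Ccn1, the second CCN protein and YAP readout, was 5.53, 6.23, 5.47, 6.13 and 6.10 in ANIT bile duct at 6 h, against 4.89, 5.30, 3.83 and 4.70 in vehicle bile duct. The groups did not overlap, though the lowest ANIT value stood only just above the highest vehicle value. The difference was 1.21 ± 0.34 (adjusted p = 0.0436). At 2 h, Ccn1 was 5.29, 4.65, 5.95, 4.39 and 4.74 in ANIT and 3.64, 4.16, 4.10, 4.70 and 4.49 in vehicle bile duct. Those groups overlapped, and the difference of 0.79 ± 0.31 did not pass (adjusted p = 0.216, 95% interval 0.13 to 1.44). It passed in 1 fit over all 39 arrays (adjusted p = 0.0367), which called 1634 of all probe sets, beside 178 in the main fit. This was 1 of 11 alternatives beside leaving out arrays.

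The 6 h call of Ccn1 was lost in 8 of the 9 fits that left out 1 array, with adjusted p between 0.0532 and 0.116, and was kept only without vehicle replicate 2 (0.0341). It was also lost with quantile normalization (a difference of 1.01, adjusted p = 0.144) and with array spread as a covariate (0.85, adjusted p = 0.342). Against the 2 h vehicle captures the Ccn1 difference was 1.67 (adjusted p = 0.000824). The authors' deposited table gives Ccn1 a 1.64-fold increase at both times, with p = 0.00081 at 2 h and p = 0.01195 at 6 h before adjustment. Once the deposited p-values were adjusted over all probe sets, Ccn1 passed at neither time.

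Tgfb2 encodes a TGF-beta ligand. Its brighter probe set, 1387172_a_at, was 7.70, 7.56, 7.82, 7.57 and 6.56 in ANIT bile duct at 6 h, against 6.56, 5.45, 6.63 and 6.17 in vehicle bile duct. ANIT replicate 5 fell among the vehicle values and the other 4 lay above them. The difference was 1.24 ± 0.35 (adjusted p = 0.0450). At 2 h it was 7.28, 7.03, 6.74, 7.04 and 7.20 in ANIT and 7.36, 6.88, 6.96, 7.58 and 7.41 in vehicle bile duct, a difference of -0.18 ± 0.23 that did not pass (adjusted p = 0.707). The 2 h groups overlapped throughout.

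The vehicle captures themselves differed between times in Tgfb2. Probe set 1387172_a_at averaged 6.20 ± 0.54 at 6 h and 7.24 ± 0.30 at 2 h in vehicle bile duct (SD, n = 4 and 5), a difference of -1.04 ± 0.30 (adjusted p = 0.0359) with no overlap. It was the only member probe set of 9 to pass in that comparison, where 14.0% of all probe sets did. The share of all probe sets without overlap was not counted there. The call was lost in 7 of the 9 fits that left out 1 array (adjusted p between 0.0502 and 0.0896), which were those without any 1 of the 5 vehicle arrays at 2 h or without vehicle replicate 2 or 4 at 6 h, and also with quantile normalization (adjusted p = 0.241). The 6 h ANIT captures differed from the 2 h vehicle captures by 0.20 (adjusted p = 0.654). These contrasts share the 5 vehicle arrays at 2 h, and the first shares the 4 vehicle arrays at 6 h with the ANIT comparison above. Between the same vehicle captures, 7 of 14 cholangiocyte markers were lower at 6 h (median -0.94), and the 16 hepatocyte markers had a median of 1.73 with 1, Pck1, higher. Their part in the Tgfb2 difference was not tested. The time of sampling and any processing batch of the 2 times cannot be told apart.

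The ANIT effect on Tgfb2 1387172_a_at was larger at 6 h than at 2 h by 1.42 ± 0.40 (adjusted p = 0.0491), the only member probe set to pass that test, where 3.57% of all did. This call was lost in 15 of 19 fits that left out 1 array (adjusted p between 0.0523 and 0.0949), and kept only without ANIT replicate 1 at 2 h, vehicle replicate 1 or 4 at 6 h, or ANIT replicate 5 at 6 h. The 6 h difference itself was lost in 7 of 9 such fits (0.0545 to 0.112) and kept without vehicle replicate 1 (0.0479) or ANIT replicate 5 (0.0296). Quantile normalization brought the 6 h difference in Tgfb2 to 0.88 (adjusted p = 0.166), and array spread as a covariate brought it to 1.00 (adjusted p = 0.180). The dim probe set 1388011_a_at did not follow: it averaged 3.20 ± 0.39 in ANIT and 3.19 ± 0.92 in vehicle bile duct at 6 h (95% interval of the difference -0.84 to 0.85). The 2 probe sets of Tgfb2 correlated at -0.05 over the 19 bile duct arrays. The authors' deposited table gives Tgfb2 1387172_a_at a 1.85-fold increase at 6 h with p = 0.00508 before adjustment, and it did not pass once adjusted.

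In all, 3 of the 9 member probe sets passed in bile duct at 6 h, all higher with ANIT, where 6.51% of all probe sets passed, 5.17% higher and 1.34% lower. Groups that did not overlap were found for 2 member probe sets, against 11.3% of all probe sets.

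Tgfb1, a second TGF-beta ligand, stayed near the dim end in every group. It was 2.74, 4.14, 2.78, 3.35 and 3.54 in ANIT and 2.54, 2.67, 2.93, 2.76 and 3.15 in vehicle bile duct at 2 h, a difference of 0.50 ± 0.28 (adjusted p = 0.371). At 6 h it averaged 2.89 ± 0.45 in ANIT and 3.16 ± 0.32 in vehicle bile duct, a difference of -0.27 (95% interval -0.93 to 0.39). The groups overlapped at both times, and no Tgfb1 comparison of ANIT with vehicle passed.

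Skil, the SMAD co-repressor, was 6.45, 5.79, 5.53, 6.17 and 6.36 in ANIT bile duct at 6 h, against 6.33, 3.85, 4.87 and 4.59 in vehicle bile duct. Vehicle replicate 1 lay among the ANIT values and the other 3 vehicle captures below them. The difference of 1.15 ± 0.42 did not pass (adjusted p = 0.116). Without vehicle replicate 1 it passed (adjusted p = 0.0159), and without any other single array it did not (0.119 to 0.280). It also passed with the hepatocyte marker level as a covariate (adjusted p = 0.0475) and in 1 fit over all 39 arrays (adjusted p = 0.0107). These were 2 of 12 alternatives beside leaving out arrays. The fit over 39 arrays called 4564 of all probe sets, beside 1033 in the main fit. At 2 h, Skil averaged 5.57 ± 0.64 in ANIT and 5.65 ± 0.35 in vehicle bile duct, with full overlap.

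Smad7, the inhibitory SMAD, did not pass in bile duct with any of its 3 probe sets. The brightest, 1368896_at, averaged 4.46 ± 0.40 in ANIT and 4.16 ± 0.28 in vehicle bile duct at 2 h (95% interval of the difference -0.22 to 0.84). At 6 h it averaged 4.05 ± 0.44 in ANIT and 4.25 ± 0.70 in vehicle bile duct (95% interval -0.96 to 0.57). For 1368898_at the differences were 0.50 at 2 h and 0.43 at 6 h, and for the dim 1368897_at they were -0.18 and -0.31. The 3 probe sets correlated with each other at -0.11, -0.20 and -0.25 over the 19 bile duct arrays, so they did not track a common level there.

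**Figure D2:**
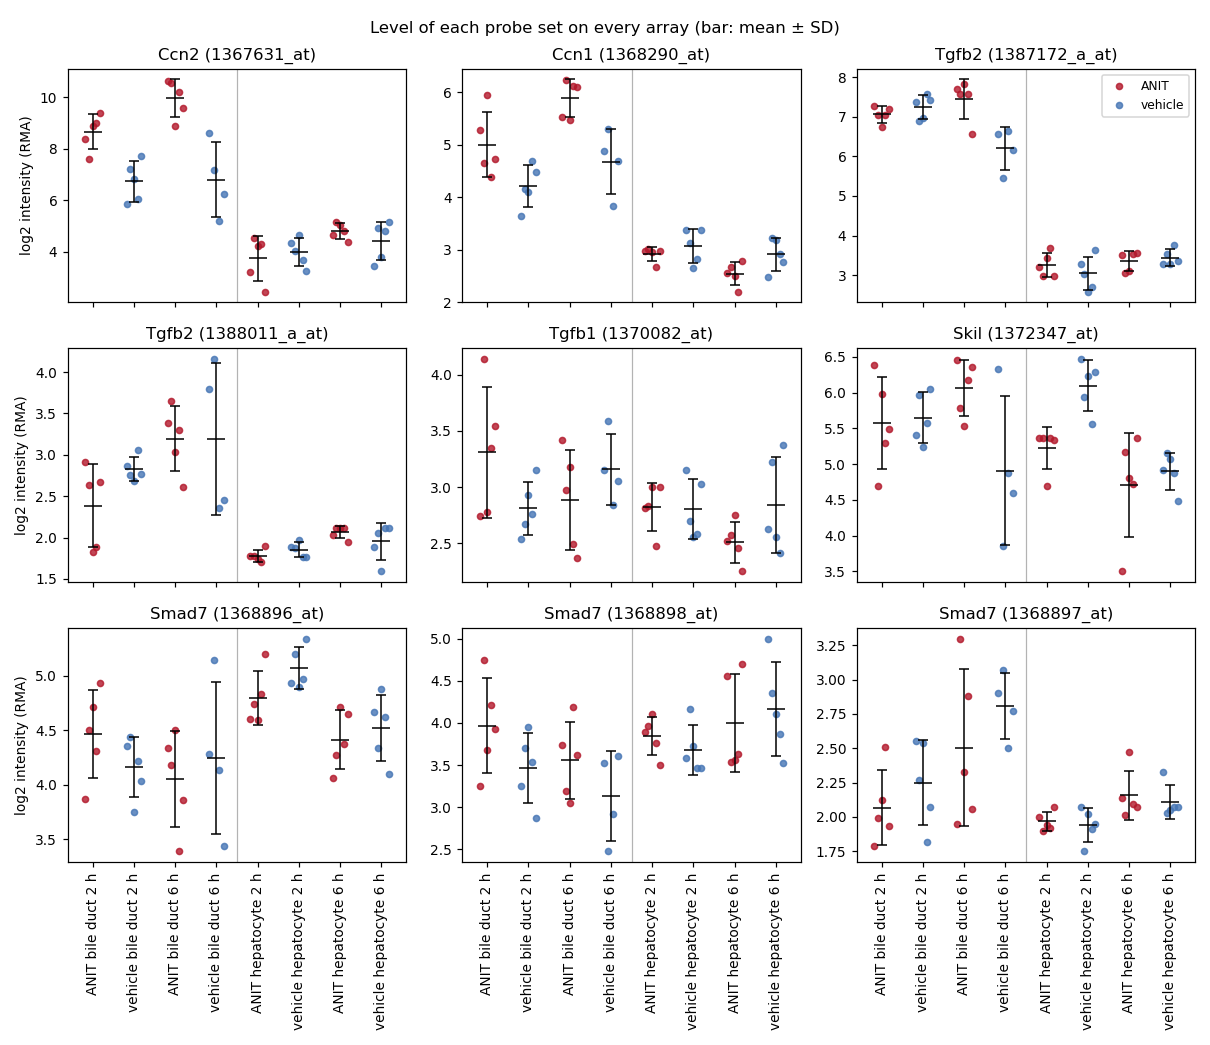
Log2 RMA intensity of each member probe set on every array, by group, with ANIT in red and vehicle in blue and the mean ± SD in black; bile duct is left of the grey line and hepatocytes right. Ccn2 in ANIT bile duct at 6 h (8.87 to 10.61) lies above vehicle bile duct (5.19 to 8.60), and no hepatocyte capture reaches the lowest bile duct capture.

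In hepatocytes, 0 of the 9 member probe sets passed at 2 h and 0 at 6 h in limma, where 0.0% of all probe sets passed at each time. At an unadjusted p under 0.05 there was 1 member probe set at each time, among 1195 probe sets at 2 h and 1285 at 6 h. When the authors' deposited p-values were adjusted in the same way, no member passed either. Ccn2 averaged 3.73 ± 0.88 in ANIT and 3.99 ± 0.55 in vehicle hepatocytes at 2 h (95% interval of the difference -1.07 to 0.56), and 4.80 ± 0.31 and 4.41 ± 0.75 in ANIT and vehicle hepatocytes at 6 h (-0.22 to 1.00).

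Skil gave the smallest unadjusted p of the members in hepatocytes. At 2 h it was 5.37, 5.36, 4.70, 5.37 and 5.33 in ANIT hepatocytes, against 6.47, 5.94, 6.23, 5.56 and 6.29 in vehicle hepatocytes. Every ANIT value lay below every vehicle value, as was so in either direction for 1.08% of all probe sets. The difference was -0.87 ± 0.18, with an unadjusted p of 0.000334 in limma and an adjusted p of 0.390. The authors' deposited table gives Skil a log2 ratio of -0.50 with p = 0.01161 before adjustment. At 6 h, Skil averaged 4.71 ± 0.73 in ANIT and 4.90 ± 0.26 in vehicle hepatocytes, with overlap. The other member below an unadjusted p of 0.05 was Ccn1 at 6 h, with 2.54 ± 0.22 in ANIT and 2.91 ± 0.31 in vehicle hepatocytes, both dim (adjusted p = 0.591).

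Whether ANIT acted differently in the 2 captured regions was tested directly. At 6 h, 3 of 9 member probe sets passed, where 7.05% of all did. The ANIT effect was larger in bile duct than in hepatocytes by 2.78 ± 0.68 for Ccn2 (adjusted p = 0.0153), by 1.58 ± 0.36 for Ccn1 (adjusted p = 0.00936) and by 1.33 ± 0.36 for Tgfb2 1387172_a_at (adjusted p = 0.0279). The Ccn2 and Ccn1 calls held in each of 19 fits that left out 1 array, with Ccn2 between 2.24 and 3.38, the highest without vehicle bile duct replicate 1. The Tgfb2 call was lost in 5 of those (0.0510 to 0.0547), without replicate 2 or 3 of ANIT hepatocytes, replicate 2 or 4 of vehicle hepatocytes or replicate 2 of vehicle bile duct, and with quantile normalization (adjusted p = 0.101). With array spread as a covariate none of the 3 passed, with differences of 2.40 for Ccn2 (adjusted p = 0.0764), 1.23 for Ccn1 (0.0837) and 1.16 for Tgfb2 (0.0813). The regional fits pool the spread of bile duct arrays with that of the closer hepatocyte replicates. In bile duct alone the 6 h call of Ccn1 was lost in 8 of 9 fits that left out 1 array. The Ccn1 difference of 1.58 includes one of -0.37 in hepatocytes, where Ccn1 was dim and did not pass.

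At 2 h the regional difference of the ANIT effect was 2.17 ± 0.57 for Ccn2 (adjusted p = 0.0659) and 0.93 ± 0.35 for Ccn1 (adjusted p = 0.199). In limma 0 of 9 member probe sets passed, where 1.02% of all passed. An unadjusted p under 0.05 was found for 4 of the 9, beside 2406 of all 15866 probe sets. Without ANIT bile duct replicates 2 and 4 together, 2 member probe sets passed. Between times in hepatocytes, 0 of 9 member probe sets passed in limma and 0 had an unadjusted p under 0.05 (all probe sets, 0.0% passed and 1072 had an unadjusted p under 0.05).

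**Figure D3:**
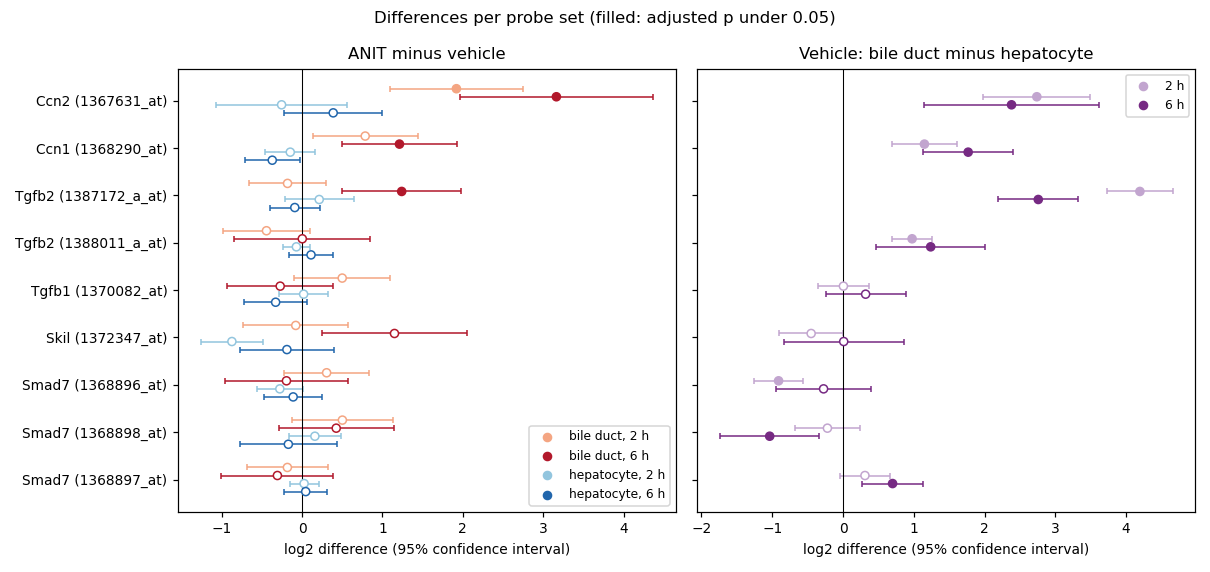
Log2 differences of the 9 member probe sets with 95% confidence intervals, ANIT minus vehicle on the left and bile duct minus hepatocyte in vehicle captures on the right; filled points have an adjusted p under 0.05. On the left the filled points are Ccn2 at 2 h and 6 h and Ccn1 and Tgfb2 1387172_a_at at 6 h, all in bile duct.

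Without ANIT, both CCN genes and Tgfb2 were higher in bile duct than in hepatocytes. In vehicle rats Ccn2 was higher in bile duct than in hepatocytes by 2.74 ± 0.35 at 2 h (adjusted p = 1.71e-05) and by 2.38 ± 0.57 at 6 h (adjusted p = 0.00415). Without vehicle bile duct replicate 1 the 6 h difference was 1.78 (adjusted p = 0.00935). Ccn1 was higher by 1.15 ± 0.21 at 2 h (adjusted p = 0.000462) and by 1.77 ± 0.29 at 6 h (adjusted p = 0.000308). Of the 9 member probe sets, 5 passed at 2 h and 6 at 6 h, where 52.2% and 53.7% of all probe sets did. The members' counts are near that background. In the same comparison 12 of 20 fibroblast, stellate cell and smooth muscle markers were higher in bile duct and 2 lower, at each time. Of all probe sets, 28.7% were higher and 23.5% lower at 2 h, and 29.3% and 24.4% at 6 h. The part of stroma in the regional differences of the members was not tested.

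Tgfb2 was higher in bile duct with both probe sets. Probe set 1387172_a_at was 7.36, 6.88, 6.96, 7.58 and 7.41 in vehicle bile duct at 2 h, against 3.27, 3.03, 2.58, 2.71 and 3.63 in vehicle hepatocytes. The groups were far apart, and the hepatocyte values lay below the median of their arrays and are not shown to be above background, so the size of the difference may be understated. The difference was 4.19 ± 0.21 (adjusted p = 1.50e-09) at 2 h and 2.76 ± 0.26 (adjusted p = 3.19e-06) at 6 h on the log2 scale. The dim probe set 1388011_a_at was also higher in bile duct, by 0.98 at 2 h (adjusted p = 2.28e-05) and 1.24 at 6 h (adjusted p = 0.0116). Quantile normalization ended its 6 h call (adjusted p = 0.121).

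Smad7 gave different answers by probe set in the same regional comparison. Probe set 1368896_at was lower in bile duct than in hepatocytes at 2 h, with 4.16 ± 0.28 in bile duct and 5.07 ± 0.19 in hepatocytes (difference -0.91, adjusted p = 0.000347), and did not pass at 6 h (difference -0.27). Probe set 1368898_at was lower in bile duct at 6 h by 1.04 on the log2 scale (adjusted p = 0.0172), and 1368897_at was higher there by 0.70 (adjusted p = 0.0115). The 6 h call of 1368898_at was lost with array weights (adjusted p = 0.0878), and that of 1368897_at with quantile normalization (0.13, adjusted p = 0.624). No direction for Smad7 between regions follows from the 3 together. Tgfb1 and Skil did not pass between regions at either time, with differences of 0.01 and 0.32 for Tgfb1 and -0.45 and 0.01 for Skil at 2 h and 6 h.

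In vehicle hepatocytes Skil and 1 of the 3 Smad7 probe sets were lower at 6 h than at 2 h. Skil was 4.92, 5.16, 5.07, 4.87 and 4.48 at 6 h, against 6.47, 5.94, 6.23, 5.56 and 6.29 at 2 h. The groups did not overlap, and the difference was -1.20 ± 0.17 (adjusted p = 0.000465). Smad7 1368896_at was 4.52 ± 0.30 at 6 h and 5.07 ± 0.19 at 2 h, a difference of -0.55 ± 0.15 (adjusted p = 0.0189). Its groups only just did not overlap, with a highest value of 4.88 at 6 h and a lowest of 4.90 at 2 h. The other Smad7 probe sets had differences of the opposite sign that did not pass, 0.49 for 1368898_at (adjusted p = 0.140) and 0.17 for 1368897_at (adjusted p = 0.271), so the 3 give no common direction. Skil and Smad7 1368896_at were 2 of 9 member probe sets, where 22.2% of all probe sets passed. The share of all probe sets without overlap was not counted for this comparison. The Skil call held in each fit that left out 1 array and in the 7 other alternatives, while Smad7 1368896_at was lost in the fit over all 39 arrays (adjusted p = 0.229). The 2 h vehicle arrays that stand high in Skil here are the same arrays against which ANIT hepatocytes at 2 h (5.23 ± 0.29) were compared above.

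The other genes of the pathways give the setting of the 6 members. They were taken as 6 lists with 85 measured genes in all (some genes stand in more than 1 list), each gene by its brightest probe set, and genes such as Yap1, Tead4 and Tgfbr2 were not analysed here. At 2 h in bile duct, 0 of the 85 passed in limma in either direction, where 1.12% of all probe sets did. At an unadjusted p under 0.05 there were 1 of 14 Hippo pathway genes, 1 of 17 other YAP and TEAD targets, 1 of 3 other CCN genes, 4 of 17 TGF-beta ligands and receptors, 4 of 16 SMAD genes and 6 of 24 other TGF-beta targets, beside 2675 of all 15866 probe sets. The list medians lay between -0.19 and 0.36, beside 0.03 over all probe sets.

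At 6 h in bile duct, 14 of the 85 were higher with ANIT and 0 were lower, where 5.17% of all probe sets were higher and 1.34% lower. The same background holds for the counts of each list below. It is not a like background, since each list gene is given by its brightest probe set. Among probe sets with a mean level of 5 or more, 1337 of 5094 passed in limma in either direction. In that fit 18 of 41 list genes were higher and 0 lower. The lists were also chosen with earlier results of these data known, so no excess of pathway genes follows from these counts. None of the 17 other YAP and TEAD targets passed (4 had an unadjusted p under 0.05; median 0.31), nor did the 3 other CCN genes (0 with an unadjusted p under 0.05; median -0.22), beside a median of -0.05 over all probe sets. The nearest among the YAP targets were Ajuba, a LIM protein that restrains the LATS kinases (difference 1.14, adjusted p = 0.0510), and Arhgef17 (-1.14, adjusted p = 0.0565). Amotl1, an angiomotin that binds YAP, had 0.90 and Lats2, a Hippo kinase and feedback target, had 0.76, and neither passed. Whether Ccn2 and Ccn1 differ in this from the other YAP targets was not tested.

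Of the 14 Hippo pathway genes, 2 were higher at 6 h and 12 did not pass (median 0.65). They were Stk3, the MST2 kinase at the head of the cascade (2.67-fold, adjusted p = 0.0210), and Nf2, the merlin scaffold that activates it (2.19-fold, adjusted p = 0.0364). Both restrain YAP. Tead1, a DNA-binding partner of YAP, had a difference of 1.06 that did not pass (adjusted p = 0.0935).

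Of 17 TGF-beta ligands, receptors and activators, 4 were higher at 6 h and 13 did not pass (median 0.21). They were the latent TGF-beta binding proteins Ltbp4 (3.00-fold, adjusted p = 0.0160) and Ltbp1 (2.41-fold, adjusted p = 0.0263), the type I receptor Tgfbr1 (3.30-fold, adjusted p = 0.0280) and the co-receptor endoglin, Eng (2.69-fold, adjusted p = 0.0346), which is also an endothelial marker.

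Of 16 SMADs and their regulators, 5 were higher at 6 h and 11 did not pass (median 0.80). They were Tgif1, a SMAD co-repressor (4.09-fold, adjusted p = 0.00333), Smad5 and Smad1, which carry BMP signals (3.43-fold and 3.25-fold), Smad2, which carries TGF-beta signals (2.38-fold), and Rnf111 (Arkadia), a ligase that degrades Skil and Smad7 proteins (2.31-fold, adjusted p = 0.0299), which is named because the count is small.

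Of 24 other TGF-beta targets, 4 were higher at 6 h and 20 did not pass (median 0.28). They were Timp1, a metalloprotease inhibitor (7.37-fold, adjusted p = 0.00852), Cdkn1a, the p21 cell cycle inhibitor and also a p53 target (7.04-fold, adjusted p = 0.00346), Tgif1 again, and Tpm1, a tropomyosin (2.92-fold, adjusted p = 0.0300). Beside these, 0 of 20 fibroblast, stellate cell and smooth muscle markers passed in limma at 6 h (3 had an unadjusted p under 0.05), and their array means ranged between 5.24 and 5.56 in ANIT and between 4.76 and 5.35 in vehicle bile duct. The 16 hepatocyte markers had a median difference of -1.26 at 6 h and none passed, with array means between 3.91 and 7.44 in ANIT and between 4.75 and 8.40 in vehicle bile duct. Of 14 cholangiocyte markers 3 were higher, where 5.17% of all probe sets were. They were the junction genes Cldn7, Cldn4 and Cdh1 (7.30-fold, 7.84-fold and 2.68-fold). The part of these cell types in the member and pathway results was not tested.

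The pathway count at 6 h changed with the choice of vehicle captures. Against the 2 h vehicle captures, 4 of the 85 genes were higher and 6 lower; of the genes just named, Tgfbr1 (0.85, adjusted p = 0.0398), Smad5 (1.12, adjusted p = 0.00928) and Cdkn1a (2.32, adjusted p = 0.00116) still passed. Stk3 (0.22), Nf2 (-0.30), Eng (-0.08) and Ltbp4 (0.07) were near 0 there. With array spread as a covariate 1 gene of the 85 passed, Eng (adjusted p = 0.0273), and with quantile normalization 4 did. Leaving out 1 array gave 7 to 15, with 7 without vehicle replicate 2 or ANIT replicate 1 and 9 without vehicle replicate 3 or ANIT replicate 4 or 5.

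**Figure D4:**
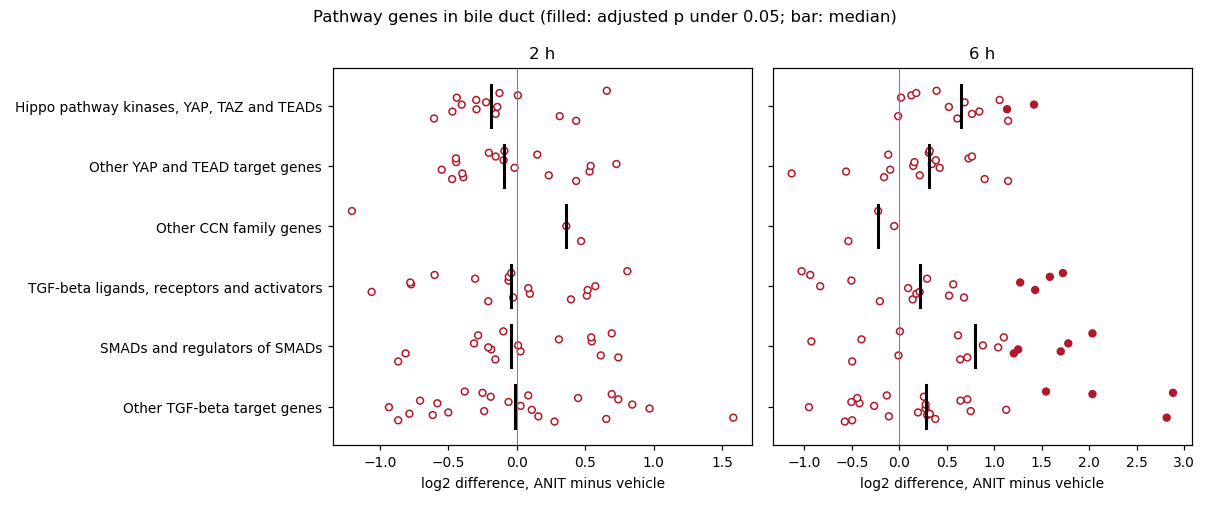
Log2 difference between ANIT and vehicle bile duct at 2 h and 6 h for each measured gene of 6 pathway lists; filled points have an adjusted p under 0.05 and the black bar is the median of the list. No point is filled at 2 h, and at 6 h the filled points lie on the positive side, with none among the other YAP and TEAD targets.

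The genes whose levels followed each member most closely are given as a description, over arrays that share group, region and spread differences. Over the 19 bile duct arrays, Ccn2 was most like Pim3, a serine kinase (Pearson r 0.89), Nectin2, an adhesion molecule (0.88), and Adamts1, a matrix protease (0.86). Ccn1 was most like Pik3ca (0.88), Cdk8 (0.87) and Eif3j (0.87), and Skil like Pgk1 (0.89), Washc4 (0.88) and Gmfb (0.88). Tgfb2 1387172_a_at was most like Slc2a2 (0.84), Adipor1 (0.83) and Mff (0.81), and Smad7 1368896_at like Capzb (0.78), Men1 (0.76) and Sh3pxd2b (0.75). No other member appeared among these genes. For the dim probe sets the nearest genes were Ing4, G4 and Fhod3 for Tgfb2 1388011_a_at (0.82, 0.82 and 0.78), Kcnh6, Prm1 and Amh for Tgfb1 (0.83, 0.82 and 0.82), Rexo1, Slc16a6 and Cpne8 for Smad7 1368898_at (0.79, 0.78 and 0.75), and Tmem72, Hrh2 and Pde3b for Smad7 1368897_at (0.82, 0.80 and 0.78).

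Over the 20 hepatocyte arrays the nearest genes were others throughout. Ccn2 was most like Atp1b1 (0.78), Tcim (0.77) and Cct8 (0.76), and Ccn1 like Clic4 (0.77), Gprc5c (0.77) and Hcrt (0.76). Skil was most like Ptprb (0.88), Tsc2 (0.87) and Slc16a7 (0.85), and Smad7 1368896_at like Ndufb5 (0.83), Tsc2 (0.82) and Atp5mk (0.81), so the 2 feedback genes shared Tsc2. Tgfb2 1387172_a_at was most like Klf2 (0.85), Il1r2 (0.83) and Egr2 (0.73), at levels below the median of every array. The remaining dim probe sets were most like Slc7a5, Padi2 and Fgf14 for Tgfb2 1388011_a_at (0.80, 0.79 and 0.79), Gclc, Kcnab2 and Nr3c1 for Tgfb1 (0.71, 0.67 and 0.67), Ehmt2, Kif6 and Havcr1 for Smad7 1368898_at (0.83, 0.79 and 0.77), and Oxt, Sstr2 and Tmeff1 for Smad7 1368897_at (0.83, 0.83 and 0.82).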

How the data were processed

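The authors deposited a table of log2 intensities per probe set after RMA, per the submitters' processing notes and the file's values, and a table of their own comparisons with log10 ratios and p-values of ANIT over vehicle, deposited per the file headers and the series' design text; software versions and the array scan dates are not given in the sources used here. The 15923 rows held 57 array controls, which were left out; of the 15866 others 12783 carry 1 gene symbol, 312 several, 2771 are not named here, and 12748 of the single-symbol identifiers are in the RefSeq table. The arrays were not made to share 1 distribution (their spread differs), and no dim probe set was removed. Samples were grouped by the labels. Differences were tested with limma 3.58.1 in R 4.3.3 (lmFit and eBayes, two-sided), each comparison on its own arrays, and checked on simulated data. Alternatives were quantile normalization, median centring, a mean level of 5 or more, trended and robust eBayes, array weights, 1 fit over 39 arrays, a replicate block, leaving out each array, the authors' p-values, array covariates (hepatocyte marker level or spread), the 2 h vehicle arrays as controls at 6 h, and leaving out 2 low-spread arrays. Between regions, the number in the array name was also used as a random block. For the regional difference of the ANIT effect that block called 141 of all probe sets at 2 h and 1139 at 6 h, beside 162 and 1118 in the main fits.

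The labels give replicate numbers to rats but do not say that a number is shared between groups or captures. Same-numbered arrays deviated together weakly or not at all (median correlation of deviations between -0.06 and 0.11 over the comparisons). The own number was the best match for 3 of 5 arrays between ANIT and vehicle hepatocytes at 2 h, where 1 pair reached 0.35. It was so too between vehicle captures at 2 h and between ANIT captures at 6 h, and for 0 or 1 array elsewhere. Pairing was not settled by this, and the numbers were not used as pairs in the main fits. The 6 genes, the gene lists and the tests were chosen with earlier results of these data known. All member probe sets are named; for each pathway list up to 4 genes with the smallest p, and for each member the 3 most correlated genes. Each limma p-value sets a difference between groups against the spread between rats within those groups. That spread is pooled over the groups compared and moderated across probe sets.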

Additional observations from a re-analysis of the deposited data

Results flagged for a closer look

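Interaction tests in limma (Benjamini-Hochberg adjusted) separated the ANIT effect between groups for 4 member results. At 6 h the effect was larger in bile duct than in hepatocytes for Ccn2 (2.78, adjusted p = 0.0153), Ccn1 (1.58, adjusted p = 0.00936) and Tgfb2 1387172_a_at (1.33, adjusted p = 0.0279). These were 3 of 9 member probe sets, where 7.05% of all probe sets passed. In bile duct the ANIT effect was larger at 6 h than at 2 h for Tgfb2 1387172_a_at (1.42, adjusted p = 0.0491), where 3.57% of all passed. That call was lost in 15 of 19 fits that left out 1 array. Vehicle bile duct itself differed by -1.04 between 6 h and 2 h in this probe set. With array spread as a covariate none of the 4 results passed. Every ANIT capture lay above the vehicle mean in bile duct and below it in hepatocytes for Ccn1, at 2 h (0.93 apart) and at 6 h (1.58 apart). The difference of 0.93 at 2 h did not pass its test. In hepatocytes Ccn1 was dim and above its array's median on no capture. Its ANIT differences there were -0.15 at 2 h (adjusted p = 0.860) and -0.37 at 6 h (adjusted p = 0.591) in limma, and neither passed. This pattern was looked for in member probe sets only, so its share over all probe sets is not known.

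Single captures stood apart from their group in 5 of the 72 groups of member values, where about 1 in 20 is flagged by chance. In ANIT bile duct at 6 h, replicate 5 had a Tgfb2 1387172_a_at level of 6.56 beside 7.56 to 7.82. In ANIT hepatocytes at 2 h, replicate 3 had a Skil level of 4.70 beside 5.33 to 5.37, and replicate 4 a Ccn1 level of 2.68 beside 2.96 to 3.02. The dim probe set Smad7 1368897_at was at 2.47 in ANIT hepatocyte replicate 3 at 6 h beside 2.01 to 2.14, and at 2.33 in vehicle hepatocyte replicate 1 at 6 h beside 2.03 to 2.07.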

How the results depend on the processing

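No member result that passed turned its direction under any alternative run. Results are given as member probe sets of 9 that passed. ANIT in bile duct at 2 h gave 1, against 2 in 1 fit over 39 arrays, 0 with the hepatocyte marker covariate, 0 with the spread covariate, 0 in the same fit without a covariate (added after seeing the data) and 0 to 1 leaving out 1 array. At 6 h it gave 3, against 1 with quantile normalization, 1 with the authors' p-values, 1 with the spread covariate and 1 to 3 leaving out 1 array. The regional difference of the ANIT effect gave 0 at 2 h, against 1 with quantile normalization, 1 above a mean level of 5, 2 without the low-spread arrays and 0 to 1 leaving out 1 array; at 6 h it gave 3, against 0 with the spread covariate and 2 to 4 leaving out 1 array. The time difference in bile duct gave 1, against 0 with quantile normalization, 0 with array weights, 0 with the spread covariate, 2 in the fit over 39 arrays and 0 to 2 leaving out 1 array. Bile duct over hepatocyte in vehicle gave 5 at 2 h and 6 at 6 h, against 2 and 1 above a mean level of 5, where fewer were tested. Vehicle 6 h over 2 h gave 1 in bile duct, against 0 with quantile normalization, 2 in the fit over 39 arrays and 0 to 2 leaving out 1 array, and 2 in hepatocytes, against 1 above a mean level of 5 and 1 in the fit over 39 arrays. Beyond fewer probe sets or arrays, the cause was not tested.

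A replicate block gave 0 member probe sets for the time difference in bile duct and 0 for vehicle 6 h over 2 h in bile duct. The labels do not say that the numbers pair the captures. With the block the 6 h bile duct count over all probe sets was 400 and the 2 h count 99, and Ccn1 at 6 h was not called (adjusted p = 0.0877), nor were Tgfb2 1387172_a_at between vehicle times in bile duct (0.0961) and in the time difference (0.0563), or Smad7 1368897_at between regions at 6 h (0.0681). Over all probe sets the block gave 17 for ANIT in hepatocytes at 6 h, 106 for the regional difference at 2 h and 509 for vehicle 6 h over 2 h in bile duct.

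Counts over all probe sets moved too. ANIT in bile duct called 178 at 2 h (12 to 308 leaving out 1 array, 471 with array weights, 1634 in the fit over 39 arrays). At 6 h it called 1033 (552 to 1137 leaving out 1 array, 609 with quantile normalization, 618 with the authors' p-values, 162 with the spread covariate, 1697 in the same fit without it, 2247 against 2 h vehicle captures, 4564 in the fit over 39 arrays). In hepatocytes it called 0 at 2 h (2 with the authors' p-values) and 0 at 6 h (20 above a mean level of 5, 14 with trended and robust eBayes, 5 in the fit over 39 arrays, 4 with array weights, 3 with the authors' p-values). The regional difference called 162 at 2 h (44 to 463 leaving out 1 array, 297 with array weights, 95 in the fit over 39 arrays, 416 without the low-spread arrays) and 1118 at 6 h (757 to 1782 leaving out 1 array, 705 with array weights, 485 with the spread covariate). The time difference in bile duct called 566 (122 to 1074 leaving out 1 array, 65 with quantile normalization, 209 with array weights, 298 with the hepatocyte covariate, 2 with the spread covariate, 4185 in the fit over 39 arrays). Bile duct over hepatocyte in vehicle called 8286 at 2 h (4257 above a mean level of 5) and 8515 at 6 h (3566 above it, 5428 with quantile normalization). Vehicle 6 h over 2 h called 2228 in bile duct (902 to 2755 leaving out 1 array, 560 with quantile normalization, 1460 above a mean level of 5, 5937 in the fit over 39 arrays) and 3529 in hepatocytes (510 in the fit over 39 arrays). Of the 85 pathway genes, 14 were higher and 0 lower at 6 h in bile duct, against 26 and 7 in the fit over 39 arrays, and 5 and 1 with the authors' p-values; the replicate block gave 6 higher. Dim probe sets limit what Tgfb1, the second Tgfb2 probe set and 2 of the 3 Smad7 probe sets can show.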
